A study of Schizosaccharomyces pombe with 3 samples.

Results

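Acetylation of histone H3 at lysine 9 (H3K9ac) was compared between Schizosaccharomyces pombe cells labelled as deleted for alp13 and cells labelled as wild type, by chromatin immunoprecipitation on Agilent 60-mer tiling arrays. The comparison uses 2 of the 3 arrays of the series, 1 array for each strain; the remaining array holds the asf1-1 allele and appears only as values set beside these, less the same wild-type array. Both strains were growing, unsynchronised cultures in rich YEA medium at 30 °C, fixed with 3% paraformaldehyde at 18 °C, with DNA sheared to between 500 and 1000 bp. On each array Cy5 carried DNA recovered with the H3K9ac antibody and Cy3 carried whole-cell extract DNA, both amplified by random-primed PCR. The arrays held 43993 probes that were not controls, and 43912 were kept. Of these, 41899 were placed on chromosome II, where 886 of 1865 protein-coding genes had 3 or more probes (median 34 a gene).

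H3K9ac is a mark laid down by acetyltransferases such as Gcn5, and in growing yeast it is known mainly from the promoters and first nucleosomes of active genes. Deacetylases remove it. In fission yeast the essential deacetylase Clr6 works in more than 1 complex, and Alp13, a chromodomain protein of the MRG family, belongs to the complex that acts on transcribed coding regions, where it is known to keep histone acetylation and antisense transcription low. Asf1 is a histone chaperone that works with chromatin assembly.

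A level here is the log2 ratio of Cy5 to Cy3 minus the median of that array's probes, so 0 is the level of the median probe, and a change is the level in the alp13 deletion minus that in wild type. "Higher" and "lower" are used for changes of at least 1.5-fold (0.58 on the log2 scale) relative to the array medians. With 1 array a strain no difference has a replicate check and none was tested; an SD over a gene's probes shows how evenly the gene moved and is not an experimental error. Probes in the first 12 kb of the array's extra contig were paired with probes of chromosome II. The shift between them was the one with the best match in Cy3 signal (correlation 0.96). Over these 239 pairs the SD of 1 probe's change was 0.13. The pairs come from 1 stretch and are not repeat spots, so this is no noise estimate for the whole array. There was no array for total H3, so acetylation per nucleosome and the amount of H3 cannot be told apart. The alp13 gene itself has no probes among those placed, so the strain of each array rests on its label. Median signals were 2101 in Cy5 and 1619 in Cy3 for the alp13 deletion, and 1808 in Cy5 and 1811 in Cy3 for wild type. No probe was saturated.

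The strains differed in where along a gene the acetylation stood. In the alp13 deletion the gene middle carried more H3K9ac than the upstream region, and in wild type the upstream region carried more than the gene middle. Over 9695 probes in the middle of 3 equal parts of a gene, the median level was 0.31 in the alp13 deletion and -0.26 in wild type, a median change of 0.49. Over 5311 probes within 500 bp upstream of a gene start and outside genes, it was -0.55 in the alp13 deletion and 0.58 in wild type, a median change of -1.08. Their difference of 1.57 does not depend on where either array is centred. The signs do: with the intergenic median of each array at 0, the upstream change becomes 0.10 and that of gene middles 1.67. Upstream probes are 5311 of the 10080 intergenic probes that set this 0, so an upstream change near 0 follows largely from that choice. The median change of all 886 genes moves to 1.12 with intergenic medians at 0, against -0.06 with array medians at 0. In turn, 31819 of the 41899 placed probes lie in genes, so a change of all genes near 0 follows largely from the latter choice. These data do not show which 0 is right. At the level of single probes 24.7% of all placed probes were higher and 34.7% lower. Among gene middles 45.9% were higher and 9.92% lower, and among upstream probes 0.791% were higher and 82.0% lower. Cy3 also differed by class. Its log2 median in the alp13 deletion less that in wild type was -0.38 in gene middles and 0.09 upstream. On Cy5 alone the middle minus upstream difference of 1.57 was 1.14. The part of Cy3 in it was not tested.

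The profile from gene starts showed the change in steps of 100 bp. In the bin centred at -950 bp the median level was -0.90 in the alp13 deletion and 0.77 in wild type. Just inside the gene, at 50 bp, it was -0.27 in the alp13 deletion and 0.54 in wild type. With array medians at 0 the curves met at 650 bp, where the median change was -0.03. Where they meet and the sign of each bin depend on the centring, whereas the rise of the change along the gene does not. At 1950 bp the level was 0.24 in the alp13 deletion and -0.47 in wild type, a change of 0.74. Genes were put in 4 length classes of about equal number. In the shortest class the change stayed below 0 with array medians at 0, at -0.50 in the bin at 650 bp and -0.34 at 1050 bp. In the next class it was -0.06 at 650 bp and 0.09 at 1050 bp. In the longest class the median change reached 1.02 at 1950 bp from the start and was still 0.96 at -850 bp from the end, before turning to -0.94 at 350 bp past the end. The first, middle and last of the 3 parts of genes changed by -0.32, 0.49 and 0.27 in the median.

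**Figure D1:**
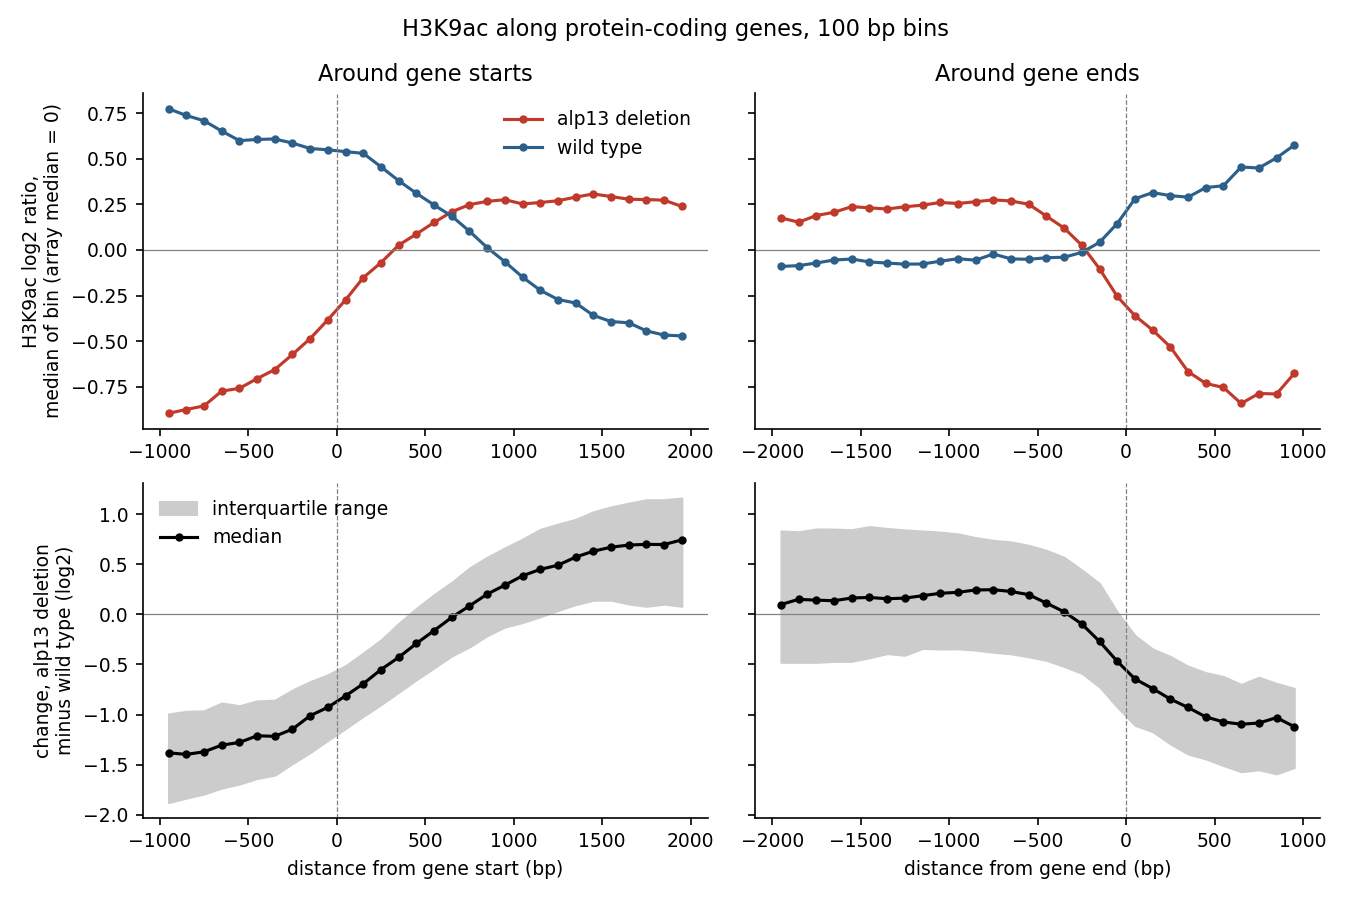
Median H3K9ac level (upper panels, log2 ratio with the array median at 0; red, alp13 deletion; blue, wild type) and median change with the interquartile range of probes shaded (lower panels) in 100 bp bins from gene starts and ends. With array medians at 0 the change over all genes crosses 0 near 650 bp inside the gene (not in the shortest length class) and is negative outside genes. Where it crosses depends on the centring, and with intergenic medians at 0 the upstream median change is 0.10.

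The same order was read gene by gene, which needs no centring. Of 655 genes with at least 3 probes both upstream and in the middle, the upstream window stood above the gene middle in 92 genes (14.0%) in the alp13 deletion and in 500 genes (76.3%) in wild type. The median of upstream minus middle was -0.64 in the alp13 deletion and 0.49 in wild type. The upstream window stood above the middle in the alp13 deletion only in 6 genes and in wild type only in 414 genes. The upstream excess was smaller in the alp13 deletion in 608 of the 655 genes. On the asf1-1 array, which is set against the same wild-type array, 367 genes (56.0%) had the upstream window above the middle and the median difference was 0.11. Among the 156 longest of these genes the order was upstream above middle in 15 in the alp13 deletion and in 147 in wild type, and in the 160 shortest in 37 in the alp13 deletion and in 89 in wild type.

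**Figure D2:**
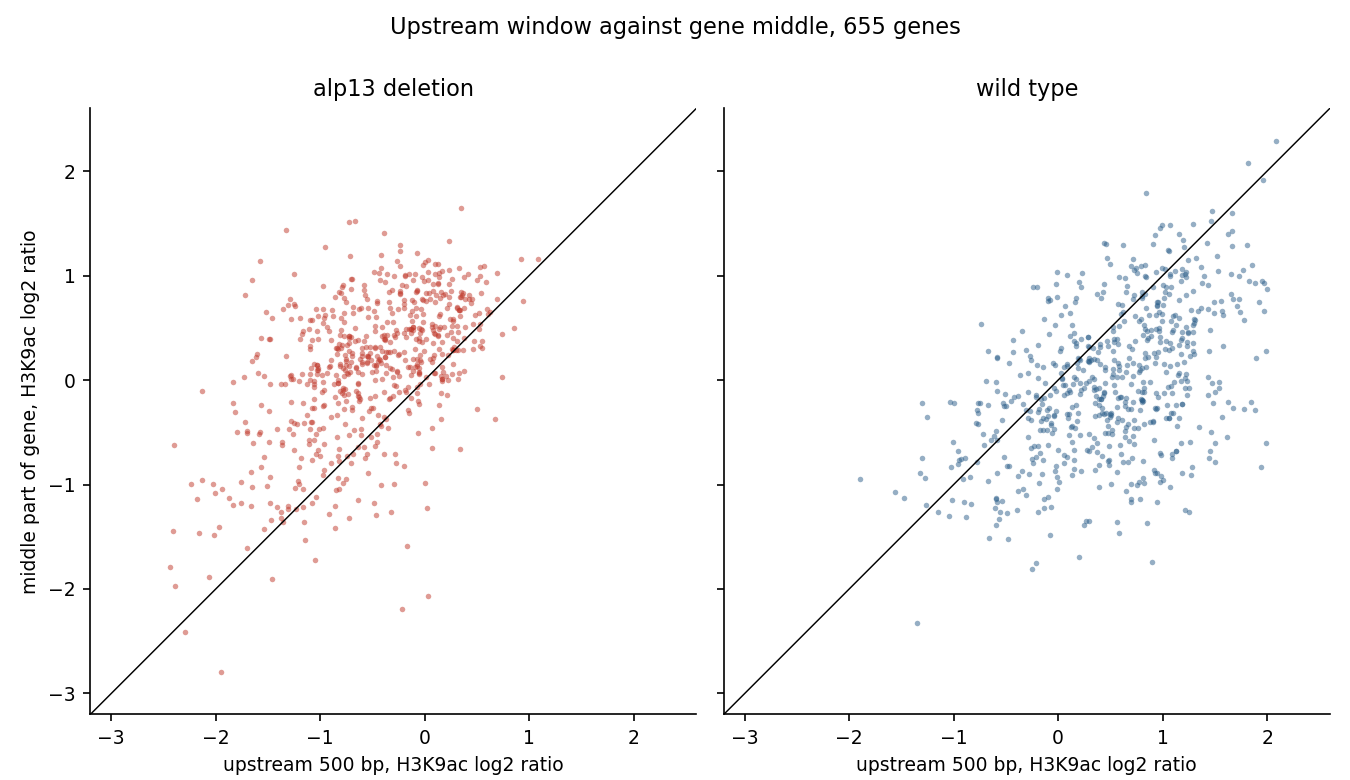
Each point is 1 of 655 genes, with the mean level of its upstream 500 bp on the horizontal axis and of its middle part on the vertical axis (log2 ratios, array medians at 0), for the alp13 deletion on the left and wild type on the right. Points below the line have more H3K9ac upstream than in the middle: 92 genes in the alp13 deletion and 500 in wild type.

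Counting the windows at 1.5-fold with array medians at 0, 529 upstream windows (80.8%) were lower and 4 (0.611%) higher, while 194 gene middles (29.6%) were higher and 119 (18.2%) lower. In 140 genes the upstream window was lower and the middle higher, and 91 of these were in the longest class. In 112 genes both were lower, and 86 of these were in the shortest class. The 4 genes whose upstream window was higher were ist2, SPBC685.03, meu18 and ppk27, and in all 4 the middle was higher too. They were picked out after their values were seen. For ist2, a membrane transporter gene, the upstream window read 1.08 in the alp13 deletion and -0.03 in wild type, and the gene as a whole 0.97 in the alp13 deletion and -0.18 in wild type. The ppk27 upstream window, before a protein kinase gene, stood just past the threshold with a change of 0.59.

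The genes with the widest spread between middle and upstream change came from several pathways. At pst1, which encodes a Sin3-family scaffold of Clr6 deacetylase complexes, the upstream window read -1.17 in the alp13 deletion and 0.81 in wild type, whereas the middle read 0.47 in the alp13 deletion and -0.94 in wild type. At dhx29, an RNA helicase gene, the upstream change was -1.72 and the middle change 1.53. At mtr10, which encodes a nuclear import receptor, they were -1.52 and 1.64. At cwf22, a splicing factor gene, they were -0.87 and 2.17. All 4 lie in the longest class. At the other extreme, both regions moved down together, relative to array medians, in SPBC21B10.15 (-1.74 upstream, -2.73 in the middle), an uncharacterised gene. In apc13, an anaphase-promoting complex subunit gene, the upstream change was -0.01 and the middle change -0.79, and in qcr10, a respiratory complex subunit gene, -0.37 and -1.21; the whole-gene change of both takes the opposite sign with intergenic medians at 0.

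Among the 886 genes as a whole, 136 were higher (15.3%) and 192 lower (21.7%) in the alp13 deletion, 328 in all (37.0%). The calls ran with gene length. In the shortest class (129 to 1207 bp, 221 genes) no gene was higher and 134 were lower, with a median change of -0.67. In the class from 1209 to 1713 bp 10 were higher and 40 lower, and from 1715 to 2438 bp 30 were higher and 12 lower. In the longest class (2455 to 11069 bp, 222 genes) 96 were higher and 6 lower, with a median change of 0.50. The upstream windows did not follow this order: their median changes were -1.09, -1.02, -1.03 and -1.07 from the shortest to the longest class. The middles did, with -0.67, 0.02, 0.36 and 0.96. Sheared fragments reached 1000 bp, so probes in short genes also report on the sequence beside them, and the part of this in the length order was not tested. The counts moved with the scaling, to 307 higher and 71 lower without centring and to 698 higher and 3 lower with intergenic medians at 0.

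**Figure D3:**
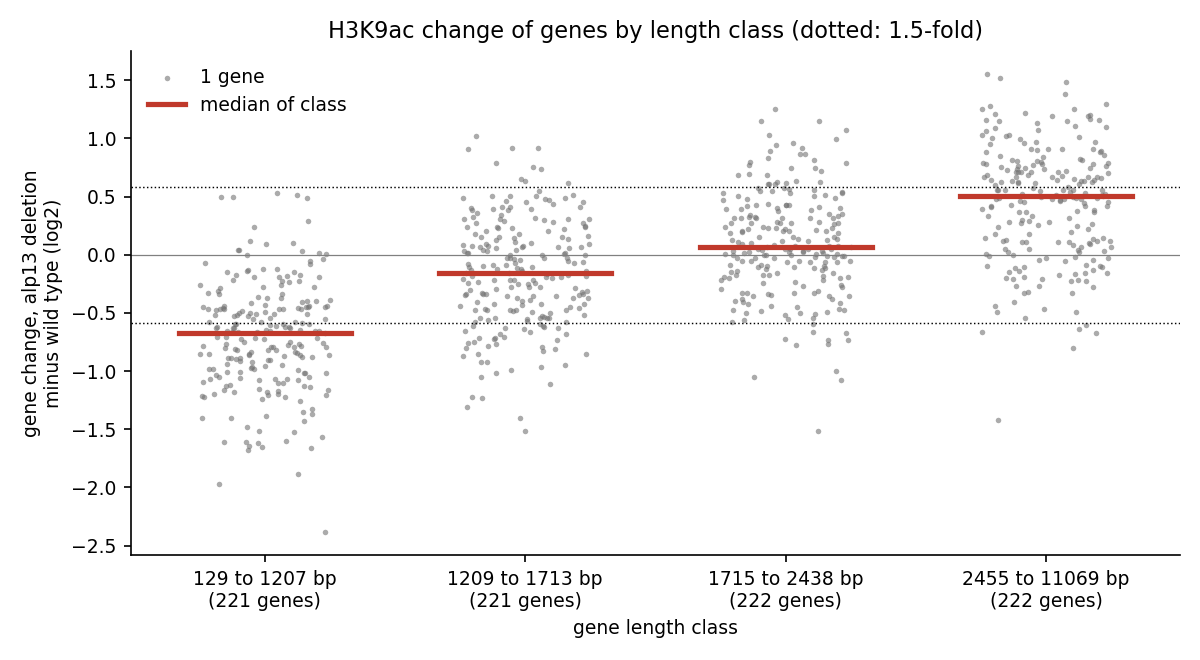
Change of each of 886 genes (grey points; alp13 deletion minus wild type, log2, array medians at 0) by class of gene length, with the median of each class in red and dotted lines at 1.5-fold. No gene of the shortest class is higher and 96 of 222 in the longest class are; with intergenic medians at 0, 698 of all 886 genes are higher and 3 lower.

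Sequences upstream of 4 genes that stand at the ends of this range are shown first, from the RefSeq annotation of assembly ASM294v3, ending at the base before the annotated transcript start and cut at the neighbouring gene where it lies nearer than 250 bp. They were chosen after the values were seen: pho7 was the gene with the largest increase, rpl26 the ribosomal protein gene with the largest decrease, rpl2101 the ribosomal protein gene with the largest upstream decrease, and hht2 lies in the histone H3 and H4 pair. Capitals mark the HomolD box of ribosomal protein promoters (CAGTCACA or its reverse complement TGTGACTG) and the AACCCT box of histone promoters (here as its reverse complement AGGGTT), both searched on both strands and not overlapping each other.
pho7: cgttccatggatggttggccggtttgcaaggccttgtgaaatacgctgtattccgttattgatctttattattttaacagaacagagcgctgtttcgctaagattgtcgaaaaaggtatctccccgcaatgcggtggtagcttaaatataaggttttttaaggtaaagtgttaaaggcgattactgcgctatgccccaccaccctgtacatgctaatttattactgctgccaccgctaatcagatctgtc
rpl26: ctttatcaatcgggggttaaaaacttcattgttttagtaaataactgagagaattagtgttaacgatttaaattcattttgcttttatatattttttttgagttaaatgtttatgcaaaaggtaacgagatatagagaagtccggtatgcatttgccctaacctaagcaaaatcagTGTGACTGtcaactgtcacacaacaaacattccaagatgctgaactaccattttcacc
rpl2101: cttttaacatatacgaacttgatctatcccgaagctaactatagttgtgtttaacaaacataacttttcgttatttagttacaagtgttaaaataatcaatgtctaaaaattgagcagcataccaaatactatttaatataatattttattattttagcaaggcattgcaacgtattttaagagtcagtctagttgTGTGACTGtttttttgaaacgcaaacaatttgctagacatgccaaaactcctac
hht2: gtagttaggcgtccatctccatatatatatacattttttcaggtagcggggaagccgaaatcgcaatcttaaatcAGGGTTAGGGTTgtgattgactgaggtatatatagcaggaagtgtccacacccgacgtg
They lie at chrII:1347975-1348224 for pho7, chrII:1558637-1558870 for rpl26 and chrII:2503781-2504030 for rpl2101, all on the minus strand, and at chrII:1364985-1365118 on the plus strand for hht2. Neither set of letters occurs in the pho7 window. HomolD was found within 250 bp upstream of 2.36% of the 1865 chromosome II genes, and in 15 of the 25 measured ribosomal protein genes. The upstream windows of the 20 measured genes with HomolD changed by -1.04 in the median, beside -1.06 for the genes without it. AACCCT was found before 7.99% of genes, and its 81 measured carriers changed by -1.05 upstream, beside -1.06 for the rest. A run of 10 A or 10 T was found before 6.38% of genes, with upstream medians of -1.29 in its 51 measured carriers and -1.04 in the rest.

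The pho7 gene, for a transcription factor of the phosphate response (chrII:1345112-1347974), had a mean level of 0.74 in the alp13 deletion and -0.82 in wild type over 57 probes. Its change of 1.56 ± 0.36 (SD across probes) was positive at all 57 probes, and its upstream window changed by 0.31, within the 1.5-fold threshold. The gene with the most probes, tra1 (chrII:1894350-1905418), encodes the activator-binding pseudokinase subunit of the SAGA acetyltransferase complex. It averaged 0.41 in the alp13 deletion and -0.97 in wild type, with a positive change at 221 of 221 probes. Its upstream window stood at -0.11 in the alp13 deletion and -0.13 in wild type. Both channels took part at tra1, with geometric mean Cy5 signals of 3171 in the alp13 deletion and 1405 in wild type and geometric mean Cy3 signals of 1795 in the alp13 deletion and 2749 in wild type. The part of the whole-cell extract signal in such changes was not tested, but the middle minus upstream difference of 1.57 was 1.14 on Cy5 alone.

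Other long genes were higher over most of their length. The COPII coat gene sfb3 had 1.10 in the alp13 deletion and -0.38 in wild type, with an SD of 0.98 across its probes, and its middle alone changed by 2.43. SPBC24C6.09c, annotated as a phosphoketolase, had 0.76 in the alp13 deletion and -0.50 in wild type. In the next class lsd90 reached 1.08 in the alp13 deletion and 0.01 in wild type, and the ubiquitin ligase gene SPBP4H10.07 reached 1.00 in the alp13 deletion and -0.04 in wild type. The chaperonin subunit gene cct8 stood at 0.32 in the alp13 deletion and -0.65 in wild type. Among genes of 1209 to 1713 bp the highest changes were 0.92 for the telomere cap gene stn1, 0.92 for the uncharacterised SPBC685.03 and 0.91 for pat1, the kinase that holds back meiosis. The pat1 gene read 0.63 in the alp13 deletion and -0.28 in wild type.

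The genes with the largest decreases were short. SPBC21B10.15 averaged -0.45 in the alp13 deletion and 1.93 in wild type over 12 probes, and none of the 12 was higher in the alp13 deletion. The mitochondrial ribosomal protein gene mrpl39 averaged -0.33 in the alp13 deletion and 1.55 in wild type. SPBC16E9.20, uncharacterised, averaged -1.56 in the alp13 deletion and 0.08 in wild type. The lowest genes of the class from 1209 to 1713 bp included 2 from glycolysis. The enolase gene eno101 read -1.44 in the alp13 deletion and 0.08 in wild type. For the aldolase gene fba1 the levels were -1.23 in the alp13 deletion and 0.00 in wild type. Both were named for being lowest, and pfk1, also of glycolysis, changed by 0.11 over 65 probes. The prefoldin gene pfd1 read -0.54 in the alp13 deletion and 0.86 in wild type. Longer genes that were lower were mug124 (change -1.52), the deubiquitinase gene ubp11 (-1.05), the ER oxidoreductin gene ero11 (-0.77), SPBC365.16 (-1.42), the transketolase gene tkt1 (-0.80) and gfa1 (-0.67), which makes glucosamine 6-phosphate. Of these 6, ubp11, ero11, tkt1 and gfa1 take a positive sign with intergenic medians at 0. The changes of mug124, SPBC365.16, SPBC16E9.20, eno101, fba1 and pfd1 stay negative there but fall within the threshold. Only 3 of the 36 named lower genes keep the call under that centring. Side by side with the asf1-1 array, less the same wild-type array, the changes of eno101, fba1, mug124 and SPBC21B10.15 were -1.04, -0.83, -0.98 and -1.21, and those of pho7 and tra1 0.36 and 0.13.

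**Figure D4:**
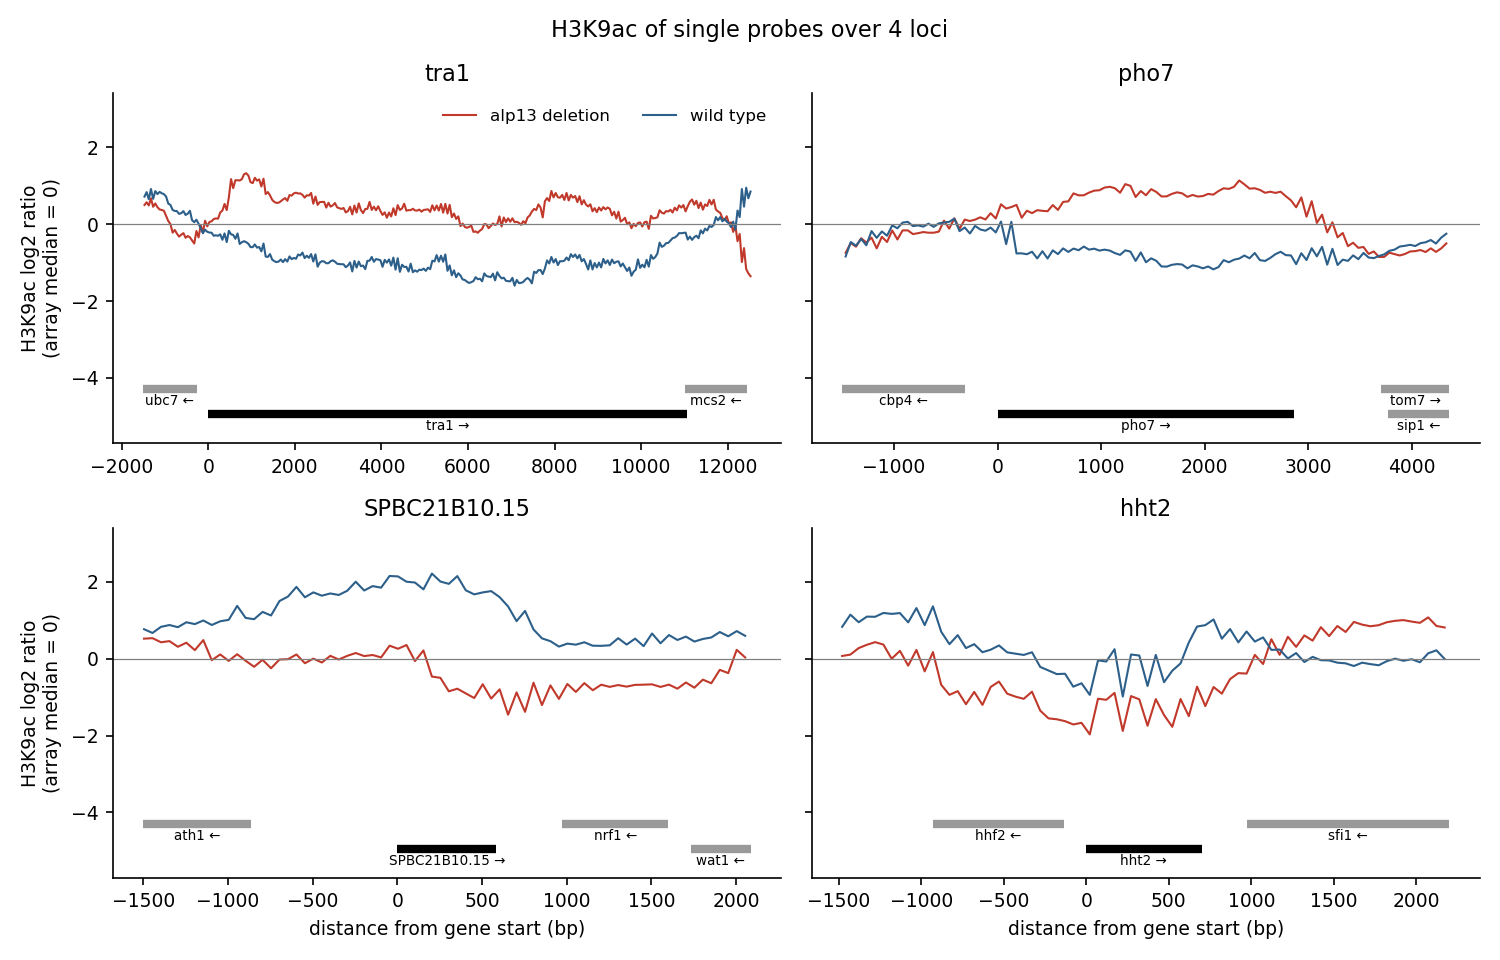
H3K9ac level of single probes (log2 ratio, array medians at 0; red, alp13 deletion; blue, wild type) against distance from the start of tra1, pho7, SPBC21B10.15 and hht2, with genes drawn below as bars (black, the named gene; arrows, direction). The red line stands above the blue over tra1 and pho7 and below it over SPBC21B10.15 and hht2; the mean change of hht2 is 0.03 with intergenic medians at 0.

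Lists of genes are read against 15.3% of all genes higher and 21.7% lower, and against their length, since 134 of 221 genes of the shortest class were lower and 96 of 222 of the longest were higher. Genes for cytosolic ribosomal proteins and for histones had the lowest medians of the 22 lists, medians that turn positive with intergenic medians at 0. Of 25 measured cytosolic ribosomal protein genes, 23 were lower and none higher, with a median change of -0.90, which becomes 0.28 with intergenic medians at 0; 23 of the 25 lie in the shortest class. The lowest, rpl26, averaged -0.86 in the alp13 deletion and 0.80 in wild type, with -0.97 in the alp13 deletion and 0.71 in wild type in its upstream window. The upstream window of rpl2101 stood at -1.16 in the alp13 deletion and 0.96 in wild type. Many ribosomal protein genes have a near-identical copy elsewhere, so their probes can report on both. Of 9 mitochondrial ribosome genes 1 was higher and 2 lower, with a median of -0.14. Of 14 ribosome biogenesis genes, 7 of them in the shortest class, 2 were higher and 6 lower. The pre-rRNA processing gene esf1 changed by 0.69 and the lowest, rrs1, by -1.41. For esf2 the change was also 0.69, but 78 of its 104 probes lie in lvs1 too, and the 26 of its own changed by -0.42.

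The histone H3 and H4 genes hht2 and hhf2 share a gap of 134 bp, whose sequence is given above. The gap read -1.67 in the alp13 deletion and -0.58 in wild type. The hht2 gene averaged -1.30 in the alp13 deletion and -0.14 in wild type, and hhf2 -0.95 in the alp13 deletion and 0.26 in wild type, so both were lower relative to array medians, while the median change of the 3 histone genes becomes 0.03 with intergenic medians at 0. The H2A.Z gene pht1 changed by -0.54, within the threshold. Of the 3 histone genes, 2 lie in the shortest class. The coding sequences of H3 and H4 have near-identical copies elsewhere in the genome, so these probes can report on several genes.

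Genes of the chromatin machinery moved both ways. The 3 measured deacetylase complex genes had a median length of 5092 bp, with none in the shortest class. Of these, 2 were higher. They were pst1, at 0.51 in the alp13 deletion and -0.56 in wild type, and its relative pst3, at 0.58 in the alp13 deletion and -0.62 in wild type. The remaining member, png2, an ING-family gene, changed by -0.16. Of 7 acetyltransferase complex genes, tra1 was higher, and sus1 and sgf29, short genes for SAGA subunits, were lower with -1.18 and -1.11, turning to 0.0033 and 0.07 with intergenic medians at 0. Of 8 histone chaperone and remodeller genes, none of them in the shortest class, 4 were higher and none lower, among them sol1, of the SWI/SNF remodeller, with a change of 0.77. The RSC remodeller gene rsc4 read 0.70 in the alp13 deletion and -0.45 in wild type, but 37 of its 41 probes lie in pst3 too and are the same measurements, and its own 4 probes changed by -0.01. The H2A-H2B chaperone gene nap2 changed by -0.36. Of the heterochromatin and RNAi genes clr1, lsd1 and tas3 none passed the threshold; their changes were 0.54, 0.36 and 0.16.

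RNA polymerase II and Mediator genes, 1 of which is in the shortest class, had 5 of 8 members higher and 1 lower, beside the 15.3% and 21.7% of all genes. The gene for the largest subunit, rpb1, read 0.02 in the alp13 deletion and -1.20 in wild type, and the Mediator scaffold gene med14 changed by 0.85, with 58 of its 62 probes shared with pus7 and -1.32 over its own 4. The short rpb4 gene read -0.95 in the alp13 deletion and -0.07 in wild type, and its change of -0.89 becomes 0.30 with intergenic medians at 0. Of 18 protein kinase genes, none of them in the shortest class, 7 were higher and 1 lower. The protein kinase C gene pck2 changed by 1.16. The meiotic kinase gene mde3 changed by 1.26, but all 37 of its probes lie in sec31 too. Of 7 cell wall genes, again none in the shortest class, 3 were higher and none lower. The spore wall glucan synthase gene mok12 led them, at 0.73 in the alp13 deletion and -0.52 in wild type, and bgs1, the septum glucan synthase gene, changed by 0.67.

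In other groups the members spread to both sides. These counts stand beside 15.3% of all genes higher and 21.7% lower. Of 24 transcription factor genes 4 were higher and 5 lower, with a median of -0.05. The cell cycle factor gene cdc10 changed by 1.02, and the mating-type genes mat1-Mc and mat1-Mi, for which a copied cassette lies nearby, by -1.51 and -1.60. Of 29 ubiquitin system genes 7 were higher and 3 lower, with rkr1, a ubiquitin ligase gene, at 1.20. Of 23 transporter genes 3 were higher and 2 lower, with mam1, which exports the M-factor pheromone, at 1.01. Of 11 replication and repair genes 2 were higher, mcm2 of the replicative helicase with 0.86 and cdc6, the DNA polymerase delta gene, with 0.75; hpz1 was lower with -0.92, and 0.26 with intergenic medians at 0. Of 9 splicing genes 2 were higher and 1 lower. Of 9 microtubule and kinetochore genes 1 was higher (klp5, a kinesin gene, 0.65) and 1 lower, and of 11 actin and cell end genes 2 were higher, led by the myosin gene myo1 with 1.10, and 1 lower. None of 4 proteasome genes passed the threshold. The 66 genes of unknown function on the orphan list had 3 members higher and 29 lower with a median of -0.49, and 39 of them are in the shortest class.

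**Figure D5:**
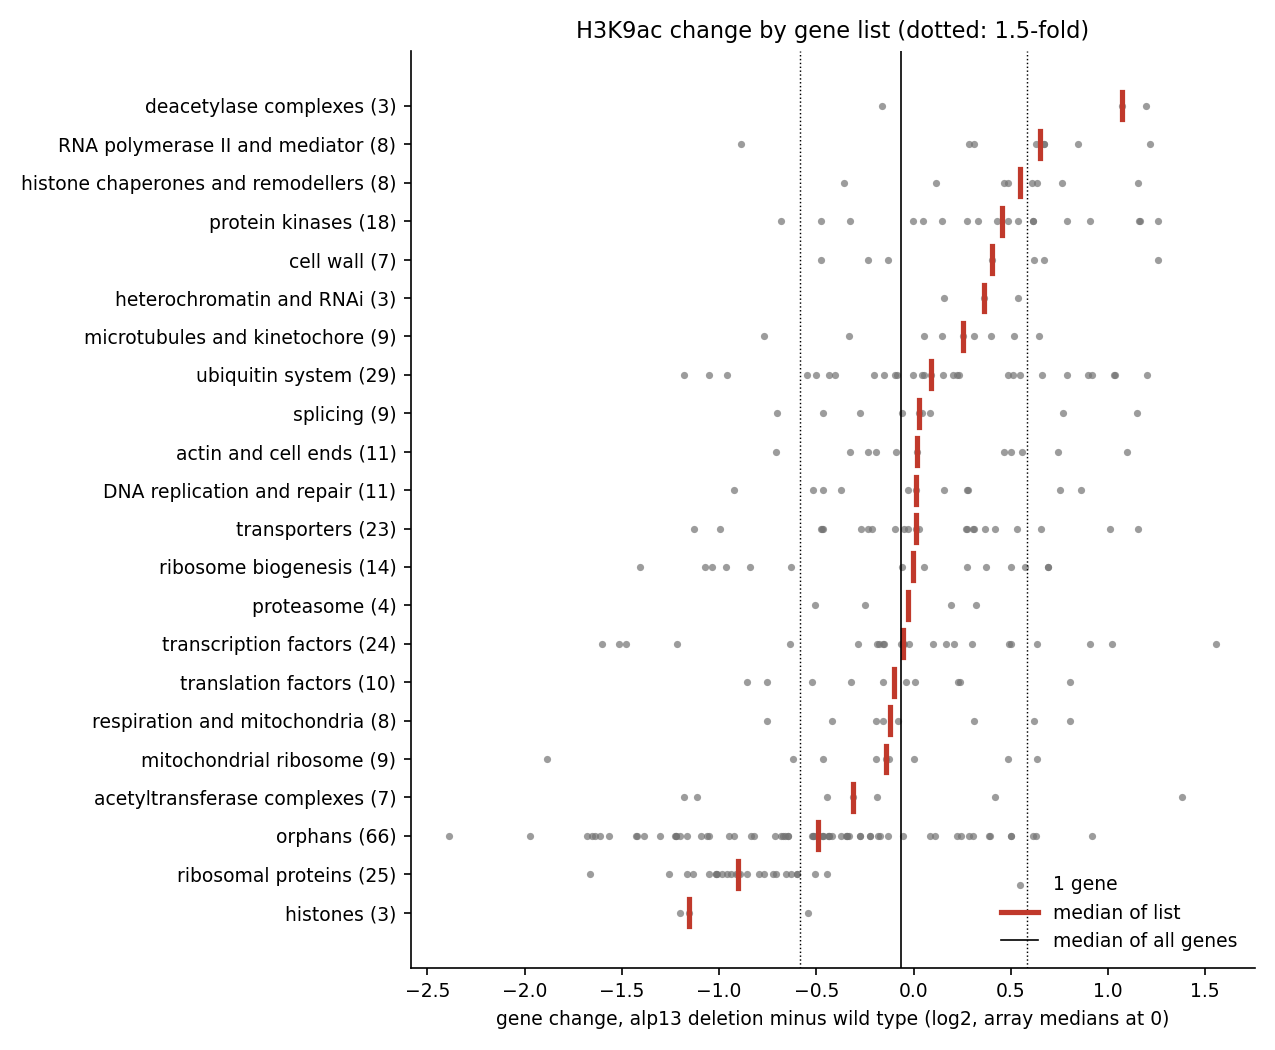
Change of each measured gene (grey; alp13 deletion minus wild type, log2, array medians at 0) in 22 gene lists with the number measured in brackets, the list medians in red, the median of all 886 genes as a black line and 1.5-fold as dotted lines. Deacetylase complex genes have the highest median (1.07, 3 genes, median length 5092 bp) and histone genes the lowest (-1.16, 3 genes, median length 796 bp). With intergenic medians at 0 the medians of histone and ribosomal protein genes become 0.03 and 0.28.

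Single probes that moved together formed long runs. Runs were taken as at least 10 neighbouring probes that all passed 1.5-fold one way. Of all 41899 placed probes, 31819 lay in genes. Higher runs numbered 251 and held 22.3% of the placed probes, and 99.0% of their probes lay in genes. The longest higher run covered 10710 bp of tra1, at a mean of 0.42 in the alp13 deletion and -0.99 in wild type. Next came runs over esf2 and the BEACH-domain gene lvs1 (7510 bp), mok12 (6710 bp) and the lipid kinase gene fab1 with prp17 (6610 bp). Lower runs numbered 417 and held 30.5% of placed probes, of which 42.2% lay in genes. The longest of these covered 6610 bp, mostly the gap between rtn1 and but2, at -1.04 in the alp13 deletion and 0.79 in wild type. A run of 5910 bp took in mug124 and fba1 whole or in part, and one of 5810 bp eno101, so these low genes lay within wider low stretches.

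Between genes, the change differed with the direction of the neighbours. Of 547 gaps with at least 3 probes, 405 (74.0%) were lower and 12 (2.19%) higher. In 200 divergent gaps, which lie between 2 gene starts, the median level was -0.60 in the alp13 deletion and 0.70 in wild type, and 178 were lower and none higher. In 291 tandem gaps it was -0.41 in the alp13 deletion and 0.46 in wild type, with 206 lower and 6 higher. In 56 convergent gaps, between 2 gene ends, it was -0.40 in the alp13 deletion and -0.05 in wild type, with 21 lower and 6 higher. By probes the median changes were -1.34, -0.99 and -0.59 for divergent, tandem and convergent gaps. With intergenic medians at 0 those of tandem and convergent gaps become 0.19 and 0.59. That of divergent gaps rises by the same amount, which leaves it negative but within the threshold. The gaps themselves are among the probes that set this 0. In divergent gaps the median moved with length from -0.91 (up to 300 bp) through -1.06 and -1.23 to -1.50 (over 1200 bp), and the order divergent, tandem, convergent held at every length.

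Base composition and signal strength differed between the classes, so the contrast was also read within bins of each. Upstream probes had a median GC content of 31.7% and middle probes 40.0%. Within GC bins from 20 to 48%, the median upstream change ran from -1.13 to -1.03 and the median middle change from 0.18 to 0.63. Within 4 equal classes of Cy3 signal, from the dimmest to the brightest, upstream medians were -1.26, -0.98, -0.81 and -0.78, and middle medians -0.28, 0.13, 0.56 and 0.76. The middle stood above the upstream class in every bin, while its sign in the dimmest class was negative.

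Tf2 retrotransposons were higher relative to array medians. The full-length elements Tf2-9 and Tf2-10 read 1.25 and 1.24 in the alp13 deletion and 0.28 for each in wild type, changes of 0.97 ± 0.53 (79 probes) and 0.95 ± 0.54 (78 probes; SD across probes). They are near-identical copies with others in the genome, so the values are of the family and not of 2 elements. Here Cy3 also differed, with medians of 4547 in the alp13 deletion and 7944 in wild type, and the median change of 1.09 was 0.47 on Cy5 alone and 0.38 with normexp background correction, both within the threshold. Annotated LTRs, not split by family or into solo and flanking copies, changed by -0.86 in the median. The change at tRNA genes with 250 bp on either side was -1.02. These become 0.32 for LTRs and 0.17 for tRNA genes with intergenic medians at 0. The LTR median was -0.41 on Cy5 alone and -0.45 without centring, both within the threshold, and -1.64 with normexp. Long non-coding RNA probes outside protein-coding genes read -0.56 in the alp13 deletion and 0.73 in wild type. Their median change of -1.25 becomes -0.07 with intergenic medians at 0. Beside it, intergenic probes in no annotated RNA changed by -1.07 with array medians at 0. Genes without overlap were split by cover of an annotated antisense RNA over at least 50% of their length. In the longest class covered genes changed by 0.56 (52 genes), beside 0.51 for genes covered less (49 genes). In the shortest class the medians were -0.75 (69 genes) and -0.82 (71 genes). In the 2 classes between, covered genes stood slightly lower, at -0.32 beside -0.29 and at 0.008 beside 0.045.

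Silent chromatin, which is known to carry little H3K9ac, had low levels on both arrays. The gene-free stretch at centromere 2 (chrII:1596745-1648231, between rpb1 and yox1, 1017 probes) stood at a median level of -3.05 in the alp13 deletion and -2.20 in wild type, and the silent mating-type stretch at mat3 (196 probes) -2.99 in the alp13 deletion and -2.33 in wild type. Their median changes of -0.80 and -0.81 become 0.38 and 0.37 with intergenic medians at 0. The outer 20 kb of the right end of chromosome II stood at -3.00 in the alp13 deletion and -2.29 in wild type, a change of -0.55, within the threshold, which becomes 0.63 with intergenic medians at 0. Of 5 bins of 2 kb across the mat3 stretch, 2 were not low in wild type, at -1.02 and -1.54 in the alp13 deletion and 0.44 and 0.47 in wild type. All 26 bins of 2 kb across centromere 2 changed downward, by -1.24 to -0.38. The signal over centromere 2 was dimmer in both channels of the alp13 deletion array, with Cy5 medians of 231 in the alp13 deletion and 657 in wild type and Cy3 medians of 1287 in the alp13 deletion and 2648 in wild type.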

How the data were processed

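H3K9ac and whole-cell extract DNA were measured on 1 Agilent array for each strain. The deposited intensity of each channel is Feature Extraction 10.7.3.1 output, background-subtracted, detrended and dye-normalised, per the file headers. The deposited log10 ratio column equalled Cy5 over Cy3 of these signals within 0.001 on the log2 scale at 43903 of 43912 kept probes of the alp13 deletion array and 43905 of the wild-type array. For the array coordinates, the build was not given in the sources used here.

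From the deposited intensity, log2(Cy5/Cy3) was computed for each probe, spots flagged as outliers on any array (81 probes) were left out, and each array was centred on its median. Probes were placed on ASM294v3 by array position minus 900 below array base 1616911 and minus 1800 above it. The offsets were checked by the correlation, over probes, of GC content at the placed position with mean Cy3 signal, which was 0.539 left and 0.52 right of that base, beside 0.247 and 0.253 for the next best offsets more than 200 bp away. A gene's value is the mean of its probes, with at least 3. Python 3.11.15, numpy 2.4.6, pandas 2.3.3, R 4.3.3 and limma 3.58.1 were used. The calculation of gene calls was run on simulated arrays with known shifts of whole genes. Those arrays shared 1 profile and had independent noise at each probe, with no variation between arrays. They check the calculation only and not the calls made here.

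The series' value table, whose deposited score columns had medians of 0.0849 (alp13 deletion), -0.0204 (asf1-1) and 0.114 (wild type), did not follow the arrays: the correlation with the own array was 0.528, -0.58 and 0.225. Its scale, centring and direction stay unknown, it gives no result here, and the strain of each array rests on the labels.

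Alternatives were no centring, intergenic centring, normexp with an offset of 50 (on the median signal columns, as no mean column was found), outlier spots kept, probes well above background, 1 spread for all arrays, Cy5 alone, GC bins of 2%, gene medians, 10 probes a gene, genes without overlap and a 2-fold threshold. Named genes were, with at least 10 probes and no overlap, the 3 highest and 3 lowest past 1.5-fold, with the same sign without centring, in each length class, the 4 highest and 4 lowest in middle minus upstream change, and, with neither condition, the 2 highest and 2 lowest of each list. Members and lists were chosen with earlier results of these data known. Others are named where runs, upstream calls or sequences turn on them.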

Additional observations from a re-analysis of the deposited data

How the results depend on the processing

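No paired analysis was possible because each strain has 1 array. The difference of gene middles and upstream windows (1.57) and of gene bodies and intergenic probes (1.21) was positive under every alternative run: on Cy5 alone it was 1.14 and 0.97, within GC bins 1.28 and 1.01, and with normexp the second was 1.35. The upstream median change was -0.67 without centring, -0.81 on Cy5 alone and -0.76 within GC bins, and turned to 0.10 with intergenic medians at 0. The gene middle change was 0.90 without centring, 1.67 with intergenic medians at 0 and 0.33 on Cy5 alone. Genes higher and lower numbered 307 and 71 without centring, 698 and 3 with intergenic medians at 0, 66 and 118 on Cy5 alone and 35 and 70 at 2-fold, and 69 genes were higher among the 492 without overlap, where fewer genes were counted. Among medians and named genes past 1.5-fold, every change of sign came with intergenic medians at 0; values within the threshold also changed sign under other settings. With intergenic medians at 0, positive values were found for downstream (0.46) and remaining intergenic probes (0.0268), ribosomal protein (0.28) and histone genes (0.0270), tandem (0.19) and convergent gaps (0.59), tRNA genes (0.17), LTRs (0.32), intergenic probes in no annotated RNA (0.12), centromere 2 (0.38), mat3 (0.37), the inner part of the right end (0.54), the first 50 kb of chromosome III (0.20) and the extra contig (0.47). The same held for ubp11 (0.13), ero11 (0.41), tkt1 (0.38), gfa1 (0.52), qcr10 (0.0033), apc13 (0.46), mrps17 (0.56), hht2 (0.0270), sus1 (0.0033), sgf29 (0.0710), syf2 (0.48), llp1 (0.11), tif512 (0.32), mti3 (0.43), rpb4 (0.30), rio2 (0.50), nrf1 (0.0521), SPBC1703.13c (0.19), hpz1 (0.26), sim4 (0.42) and sbg1 (0.48). Of 39 named genes that were higher, all 39 kept the call under normexp, 1 spread, GC bins and gene medians, and 24 on Cy5 alone. Leaving out the centring, or centring on intergenic medians, raises every gene's change by the same amount. No higher call could be lost under those 2 settings, so they do not check it. Of 36 lower genes, 22 kept the call without centring, 3 with intergenic medians at 0 and 27 on Cy5 alone. Named genes were mostly picked for their extreme values. The Tf2 median (1.09) lost its call on Cy5 alone (0.47) and with normexp (0.38). The outer 20 kb of the right end (-0.55, not called) read 0.63 with intergenic medians at 0. The number of arrays limits the precision.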
